A study of Fukomys damarensis and Heterocephalus glaber and Mus musculus with 160 samples.

Results

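The genes Hnf4a, Cebpa, Foxa1 and Rxra encode transcription factors that act in the liver, and their chromatin was compared here between mouse liver and mouse heart. The members are 4 genomic windows of the mouse build GRCm38, each holding the gene with sequence around it. The Hnf4a window (gene identifier ENSMUSG00000017950.16) is chr2:163480000-163580000, a length of 100 kb. The Cebpa window (ENSMUSG00000034957.10) is chr7:35100000-35170000, a length of 70 kb. The Foxa1 window (ENSMUSG00000035451.7) is chr12:57530000-57560000, a length of 30 kb. The Rxra window (ENSMUSG00000015846.14) is chr2:27600000-27770000, a length of 170 kb. Every peak of the mouse histone lists that overlapped a window was taken, which gave 1286 of 1711588 peaks. The windows were set by gene position, and no peak value entered the choice of peaks within them.

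HNF4A is a nuclear receptor that controls much of the hepatocyte programme, from lipid transport to clotting factors, and its gene is known to be read from a pair of alternative promoters. C/EBPα, the product of Cebpa, is a basic leucine zipper factor that drives metabolic genes and restrains hepatocyte division. FOXA1 is a pioneer factor, which can bind its sites in closed chromatin and acts early in the formation of the liver. RXRα, the product of Rxra, is the partner with which many nuclear receptors for bile acids, fatty acids, sterols and foreign compounds form heterodimers, and it is expressed in many tissues besides liver. Trimethylation of lysine 4 of histone H3 (H3K4me3) marks promoters. Acetylation of lysine 27 (H3K27ac) marks promoters and enhancers in use. Monomethylation of lysine 4 (H3K4me1) marks enhancers, both those in use and those that are primed.

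The study mapped these histone marks by chromatin immunoprecipitation and sequencing in liver and heart of several rodents, and 29 of the 116 deposited peak lists are mouse histone libraries. The mice were wild-type C57BL/6J adult males of 2 months, with no treatment. Livers were perfused with buffered saline, and clots were taken out of the heart ventricles before crosslinking. The same 4 animals (85920, 85921, 85923 and 85924) gave the liver libraries of each mark, while heart had 6 libraries for H3K4me3, 6 for H3K27ac and 5 for H3K4me1 from a changing set of animals. A heart sample called the pool below holds tissue of 3 animals and counted as 1 replicate. Liver and heart came from different animals and were called against different control libraries, so tissue cannot be told apart from animal set or control. The tissues are mixtures of cell types, and a mark carried by fewer cells cannot be told apart from a mark that is weaker in each cell.

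Liver lists held 17431 to 19301 H3K4me3 peaks, 56871 to 63479 H3K27ac peaks and 86486 to 113889 H3K4me1 peaks. Heart lists varied more, with 18135 to 32785, 57663 to 109724 and 20521 to 129914 peaks. Read depth is not carried by a peak list and is unknown. The H3K4me1 list of heart animal 33017, the longest, carries a tag that the labels do not explain. Around Alb, the albumin gene, H3K27ac peaks covered 8585 to 11218 bases in liver and 0 in every heart library. Around Myh6 and Myh7, the cardiac myosin heavy chain genes, H3K27ac peaks covered 4370 to 14199 bases in heart and 0 in every liver library, so the labels of the H3K27ac libraries matched their tissue markers. H3K4me1 covered 0 to 4675 bases around Alb in liver and 0 to 4600 around Myh6 and Myh7 in heart. Liver 85924, the heart pool and heart 17_3501 had 0 bases of H3K4me1 at their own markers, so the check does not place those H3K4me1 libraries.

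The heart H3K4me3 library of animal 6837 stood apart. It had 2325 bases of H3K4me3 around Alb, against 2268 to 3815 in liver and 0 in the other 5 heart libraries, and it also had 12747 bases around Myh6 and Myh7, the highest value of any heart library. Genome-wide, 1443 H3K4me3 regions were held by every liver library and by no heart library other than this library, and it held 1060 of them (73.5%). The same share was 28.4% for the pool (152 of 535 regions) and at most 0.777% for the remaining heart libraries. The H3K27ac library of animal 6837 held 0.802% of the corresponding H3K27ac regions. The origin of these H3K4me3 peaks was not tested. The liver minus heart differences in H3K4me3 coverage are therefore given with and without this library.

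H3K27ac was higher in liver in 4 of 4 windows and passed the test in each. Of all genome windows of these lengths, 21.1% to 23.3% were called higher in liver and 17.5% to 19.8% higher in heart. Foxa1 carried no H3K27ac peak in any of the 6 heart libraries and Hnf4a carried at most 2141 bases, while Rxra kept 15674 to 46378 bases of H3K27ac in heart. Taking positions under peaks of at least 2 libraries of a tissue, some mark covered 43.6% of the Hnf4a window in liver and 2.4% in heart. The same values were 56.7% and 12.6% for Cebpa, 40% and 10.6% for Foxa1, and 69.3% and 41.9% for Rxra. Without the H3K4me3 library of animal 6837, an alternative chosen after seeing the data, the heart values were 2.4%, 11.1%, 10.5% and 41.9% for Hnf4a, Cebpa, Foxa1 and Rxra. By this share Rxra came first and Cebpa next in both tissues, while Foxa1 came last in liver and Hnf4a last in heart.

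**Figure D1:**
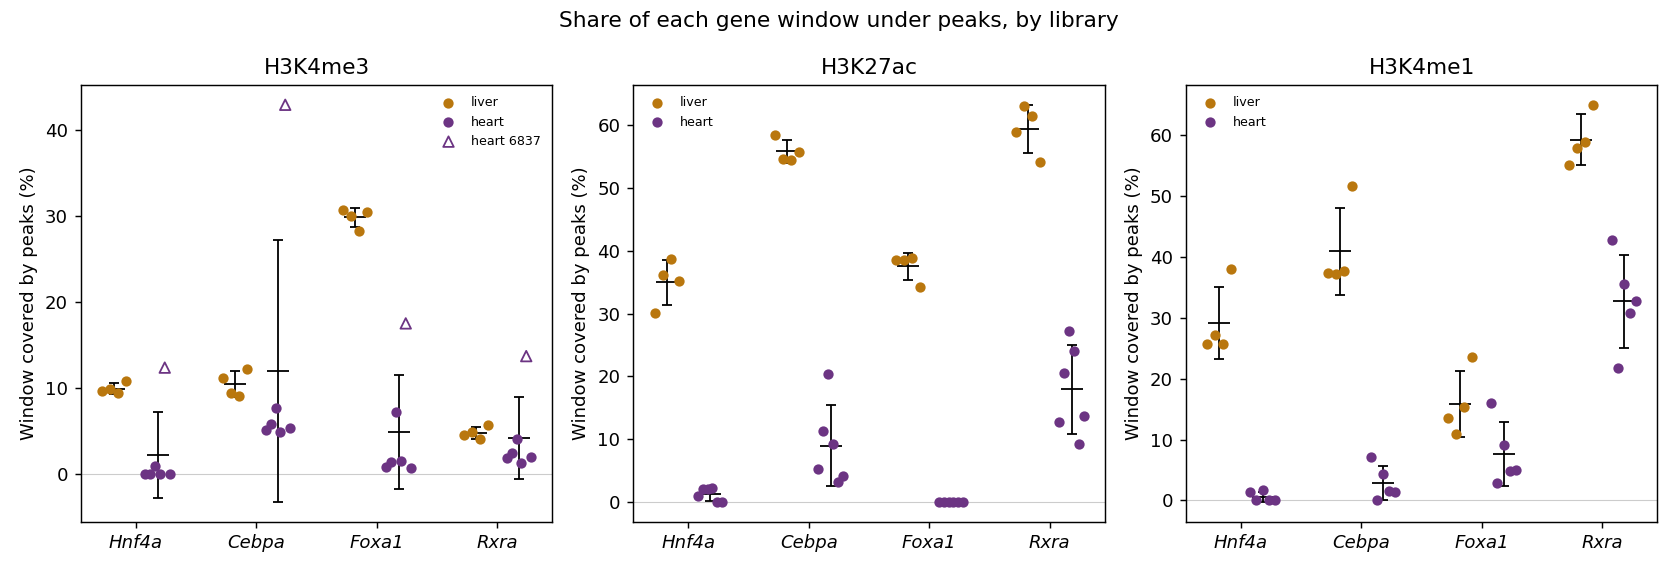
Share of each gene window covered by merged peaks (percent of the window), by mark, with 1 point per library; horizontal lines are means and bars are the SD over libraries, and the open triangle is the heart H3K4me3 library of animal 6837. For H3K27ac the liver points lie above the heart points in 4 of 4 windows, and for H3K4me3 the open triangle lies at 12.4%, 43.0%, 17.5% and 13.7% of the Hnf4a, Cebpa, Foxa1 and Rxra windows. Liver lay wholly above heart in H3K27ac in 19.6% to 21.4% of genome windows of these lengths.

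The measure tested was the number of bases of a window under merged peaks. Liver and heart libraries were compared with a two-sided exact permutation test, and p-values were adjusted by the Benjamini-Hochberg method over all genome windows of the same length that held a peak of the mark. The smallest p this design allows is 0.00476 for H3K4me3 and H3K27ac and 0.00794 for H3K4me1. Neither H3K4me3 nor H3K4me1 gave a genome window that passed the adjusted threshold of 0.05 at any of the window lengths (0% called in both directions). For H3K4me3, 1421 to 3301 windows had an unadjusted p under 0.05, depending on the window length, and for H3K4me1 2788 to 11536. For those marks the values are therefore given with whether the libraries of the tissues overlap. The deposited fold enrichment of a peak is the authors' own value, and it describes and ranks peaks within a list.

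At Hnf4a, H3K27ac spread over 35.0% of the window in liver on average and 1.2% in heart. The coverage was 30066, 36122, 38650 and 35115 bases in livers 85920, 85921, 85923 and 85924. In heart the lowest value was 0 bases, the median 1471 and the highest 2141. The liver libraries all lay above the heart libraries. The mean was 34988 ± 3603 bases (SD, n = 4) in liver and 1188 ± 1018 (SD, n = 6) in heart, a difference of 33800 bases (exact permutation test, adjusted p = 0.0177). Across the genome 22.8% of windows of this length were called higher in liver and 19.8% higher in heart, and in 20.9% every liver library was above every heart library, so passing the test is common. A larger difference than that of Hnf4a was found in 32 of 15241 windows.

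The acetylation at Hnf4a lay in 3 large blocks. The block with the highest fold, chr2:163534785-163542803, is 8019 bases wide and had a fold of 68.3 to 84.1 in the liver lists. In each liver list at most 220 H3K27ac peaks of the whole genome had a higher fold than the top Hnf4a peak. The widest block, chr2:163546094-163561658, is 15565 bases wide, with a median liver fold of 35.6 and no heart peak over it in any library. The remaining block, chr2:163570909-163577129, is 6221 bases wide with a median liver fold of 39.3. A small region far from these, chr2:163506806-163507441, was held by 4 of 4 liver and 0 of 6 heart libraries with a liver fold of 3.4 to 8.7, and it is named here after its values were seen. Small heart peaks lay over 2 of the large blocks in some heart libraries, with folds of at most 9.9.

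H3K4me3 at Hnf4a formed a pair of broad domains in liver. The wider, chr2:163537435-163542285, spans 4851 bases and had a median liver fold of 31.3. The other, chr2:163546931-163550825, spans 3895 bases with its centre 9.0 kb away, and carried the highest fold of the window in each liver list, from 76.8 to 160.0. The files carry no gene models, so neither domain was assigned to an Hnf4a promoter. Coverage by H3K4me3 was 9581, 9861, 9409 and 10830 bases in livers 85920, 85921, 85923 and 85924. In heart 4 libraries had 0 bases, the pool had 917 and animal 6837 had 12364. The tissues overlapped because of animal 6837 alone, and the difference was 7707 bases (exact permutation p = 0.0476, adjusted p = 0.421). Without that library the heart mean was 183 ± 410 bases (SD, n = 5), the tissues did not overlap and the difference was 9737 bases (exact permutation p = 0.00794, adjusted p = 0.119). Windows of this length in which liver lay wholly above heart made up 1.24% of the genome windows with that library and 5.95% without it. A larger difference than at Hnf4a was found in 6 of 17202 windows with it and in 5 of 16869 without it.

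H3K4me1 at Hnf4a covered 25755, 27207, 25757 and 38037 bases in livers 85920, 85921, 85923 and 85924. In heart it covered 1387 bases in animal 33017, 1661 in animal 17_3498 and 0 in the pool, 17_3501 and 17_3500. The difference of 28579 bases left no overlap between the tissues but did not pass the adjusted test (exact permutation p = 0.00794, adjusted p = 0.0801). Of windows of this length, 13.3% had every liver library above every heart library in H3K4me1. Of 24 H3K4me1 regions in the window, 12 were held by every liver library and by no heart library, against 8.26% of regions over the genome. The widest of these, chr2:163550882-163561652, is 10771 bases wide and lies beside the domain of H3K4me3 with the highest fold, inside the widest H3K27ac block. The next in width were chr2:163573887-163576464 and chr2:163569762-163571800, with 2578 and 2039 bases. Heart peaks lay over part of chr2:163573887-163576464 in 2 heart libraries, with folds of at most 7.7.

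**Figure D2:**
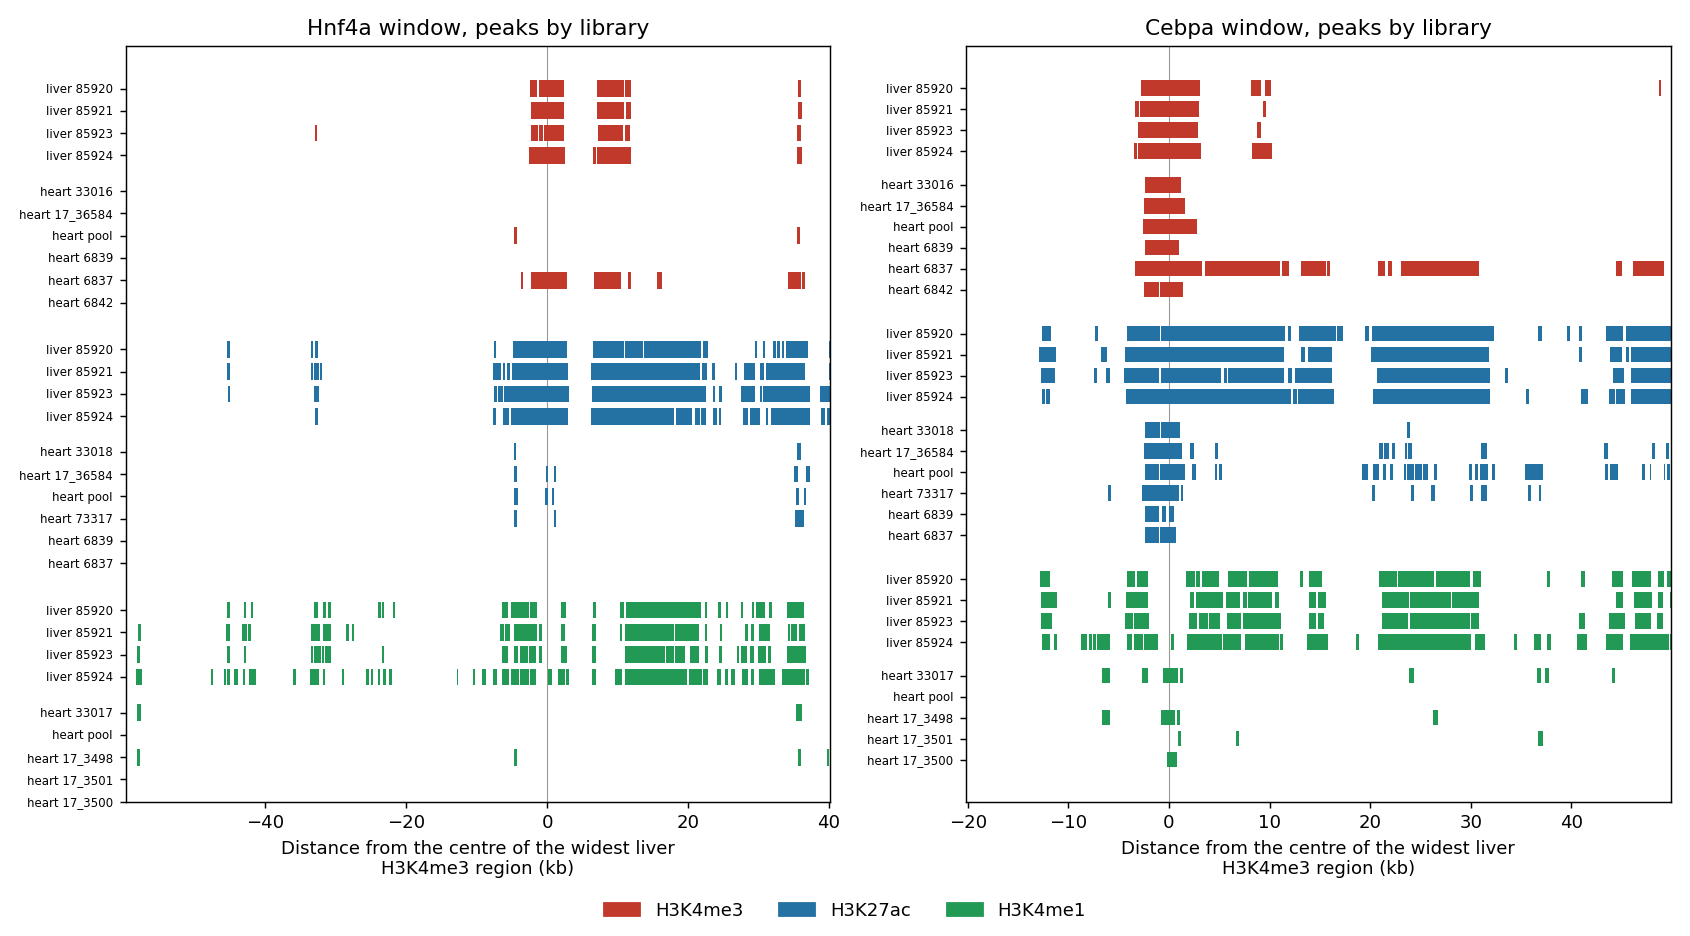
Peaks in the Hnf4a and Cebpa windows, with 1 line per library and distance in kb from the centre of the widest liver H3K4me3 region on the horizontal axis; colours are the marks. The heart lines of Hnf4a are nearly empty apart from H3K4me3 in animal 6837. At Cebpa each heart library of H3K4me3 and of H3K27ac has a peak near the centre of the widest liver H3K4me3 region.

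Cebpa differed from Hnf4a in that its promoter-type domain was present in both tissues. The H3K4me3 region chr7:35116742-35123306 was held by 4 of 4 liver and 6 of 6 heart libraries. The widest H3K4me3 peak of the window, which lay on this region in each liver, was 5897, 5826, 5955 and 6263 bases in livers 85920, 85921, 85923 and 85924. In heart it ranged from 2259 to 7418 bases with a median of 3814. The value of 7418 belongs to a peak of animal 6837 that lies beside the region, with a fold of 4.8. The peak of that library on the region was 6639 bases. In animal 6842 the region was split into peaks of 1495 and 2259 bases. The liver mean was 5985 ± 193 bases (SD, n = 4), and the heart mean 4345 ± 1803 (SD, n = 6), or 3730 ± 1108 (SD, n = 5) without animal 6837. The liver peaks were among the widest of their lists, with at most 60 wider peaks in any liver list. In heart lists the widest peak of the window also ranked high, with 30 to 236 wider peaks in 5 of the 6 lists and 1292 in that of animal 6842. The value of 30 is that of the peak of animal 6837 beside the region.

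The H3K4me3 coverage of the whole Cebpa window turned on animal 6837. Livers 85920, 85921, 85923 and 85924 had 7786, 6566, 6319 and 8552 bases. Heart ranged from 3439 to 30071 bases with a median of 3900, and the highest value was that of animal 6837. With that library the heart mean of 8369 ± 10653 bases (SD, n = 6) was above the liver mean of 7306 ± 1050 (SD, n = 4), and the difference of -1064 bases had an exact permutation p of 1. Without it the tissues did not overlap, and liver was higher by 3277 bases (exact permutation p = 0.00794, adjusted p = 0.117). Genome windows of 70 kb with liver wholly above heart made up 1.43% with the library and 6.05% without it. A larger difference than at Cebpa was found in 19832 of 20967 windows with it and in 311 of 20372 without it.

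H3K27ac covered 55.9% of the Cebpa window in liver on average and 8.9% in heart. Its coverage was 40964, 38282, 38161 and 39049 bases in livers 85920, 85921, 85923 and 85924. In heart it ranged from 2230 bases to 14309 in the pool, with a median of 5088. The liver libraries again lay above all heart libraries, and the difference was 32854 bases between means of 39114 ± 1294 (SD, n = 4) and 6260 ± 4509 (SD, n = 6) (exact permutation test, adjusted p = 0.0175). Of the genome windows of this length 22.4% were called higher in liver and 19.4% in heart, liver lay wholly above heart in 20.7%, and 18 of 19738 had a larger difference. By fold the leading regions were chr7:35166051-35170947, chr7:35140298-35152059 and chr7:35115771-35131669, with median liver folds of 67.2, 56.8 and 56.4. The last of these is 15899 bases wide and encloses the H3K4me3 region, and the heart peaks inside it had folds of 7.6 to 24.7. Heart peaks covered too little of it to count as holding it, although each heart library had a peak there. The block chr7:35133027-35136574, of 3548 bases, had no heart peak over it in the 6 heart libraries.

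H3K4me1 in the Cebpa window covered 26182, 25992, 26352 and 36161 bases in livers 85920, 85921, 85923 and 85924. Heart had 4970 bases in animal 33017, 0 in the pool, 2992 in 17_3498, 1116 in 17_3501 and 974 in 17_3500. The tissues did not overlap, with a difference of 26661 bases (exact permutation p = 0.00794, adjusted p = 0.0757), as in 13.6% of windows of this length. Of 20 H3K4me1 regions, 12 were held by every liver and no heart library, against 8.26% of regions over the genome. The widest were chr7:35144053-35151129 with 7077 bases, chr7:35121955-35125430 with 3476 and chr7:35127982-35131088 with 3107. Heart peaks lay over part of chr7:35144053-35151129 in 2 heart libraries, with folds of at most 5.0. Liver H3K4me1 lay over the ends of the H3K4me3 region and beyond them, while some heart H3K4me1 peaks lay on its middle. The region chr7:35119561-35121365, inside the H3K4me3 region, was held by 3 of 5 heart libraries and 0 of 4 liver libraries (Fisher's exact p = 0.167), and it is named here after its values were seen.

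Foxa1 showed the plainest contrast in H3K27ac. The mark covered 11560, 11548, 11652 and 10275 bases in livers 85920, 85921, 85923 and 85924, and 0 bases in each of the 6 heart libraries. The liver mean was 11259 ± 657 bases (SD, n = 4), and the same value is the difference (exact permutation test, adjusted p = 0.0182). Of 30 kb windows 21.1% were called higher in liver and 17.5% in heart, liver lay wholly above heart in 19.6%, and 383 of 34965 had a larger difference. All 4 H3K27ac regions of the window were held by every liver library. The leading 3 by fold were chr12:57538004-57540456, chr12:57540880-57547321 and chr12:57536107-57537685, with median liver folds of 41.5, 37.9 and 9.7.

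Foxa1 was not bare in heart, however. Each of the 6 heart H3K4me3 libraries had a peak in the window. Their H3K4me3 coverage was 216 bases at the lowest, 440 at the median and 5253 at the highest, the last in animal 6837. Each of the 5 heart H3K4me1 libraries also had peaks, covering 4828 bases in animal 33017, 858 in the pool, 2733 in 17_3498, 1472 in 17_3501 and 1511 in 17_3500. Of the 1971 bases under H3K4me3 of at least 2 heart libraries, 99.0% were also under heart H3K4me1 and 0% under heart H3K27ac. Without animal 6837 there were 525 such bases, with 100% under heart H3K4me1. In animal 33017 the strongest H3K4me1 peak at Foxa1 had a fold of 15.9, and 77 peaks of that list had a higher fold. In each of the other heart lists the strongest peak was a different one, within chr12:57538221-57539443, and it ranked lower. The top folds were 6.0, 11.3, 6.6 and 5.9 in the pool, 17_3498, 17_3501 and 17_3500. In these lists 1897, 2697, 14507 and 24948 peaks had a higher fold. The lists differ in length, and 90.5%, 97.41%, 79.02% and 65.13% of their peaks had a lower fold, against 99.94% in 33017.

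In liver the same place carried a domain of H3K4me3, chr12:57540855-57547171, of 6317 bases and with a fold of 85.8 to 124.3. The widest H3K4me3 peak of the window was 6442, 6303, 5284 and 6202 bases in livers 85920, 85921, 85923 and 85924, against 216 to 1902 in heart. Without animal 6837 the heart values were 216 to 1065. At most 54 peaks of any liver list were wider. Coverage by H3K4me3 was 9226, 9013, 8486 and 9135 bases in these livers. Foxa1 was the gene whose tissues did not overlap in H3K4me3 even with animal 6837 included, with a difference of 7509 bases between 8965 ± 331 (SD, n = 4) and 1456 ± 2000 (SD, n = 6) (exact permutation p = 0.00476, adjusted p = 0.133). It was 8268 bases without that library (exact permutation p = 0.00794, adjusted p = 0.116). Liver lay wholly above heart in 1.76% of 30 kb windows with the library and in 6.21% without it. A larger difference than at Foxa1 was found in 3 of 30059 windows with it and in 6 of 28391 without it.

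The tissues overlapped in H3K4me1 at Foxa1, through heart animal 33017. Livers 85920, 85921, 85923 and 85924 had 4072, 3281, 4606 and 7062 bases, a range that took in the 4828 bases of heart animal 33017 but not the 858 to 2733 bases of the other hearts. The difference was 2475 bases between 4755 ± 1631 (SD, n = 4) and 2280 ± 1578 (SD, n = 5) (exact permutation p = 0.0635, adjusted p = 0.223), and 3112 bases without animal 33017 (exact permutation p = 0.0286, adjusted p = 0.128). Of 8 H3K4me1 regions, 1 was held by every liver and no heart library, chr12:57534477-57535976 with 1500 bases. Over the genome 8.26% of H3K4me1 regions were so held, so a count of 1 in 8 is near that share. With the same number of peaks taken from each list the difference turned to -689 bases. Per gigabase of genome under peaks it was 21531, and 33156 without the pool, where liver (45681 to 92927) lay above heart (28151 to 44013) (exact permutation p = 0.0286, adjusted p = 0.0922); leaving the pool out on this scale was chosen after seeing the data.

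**Figure D3:**
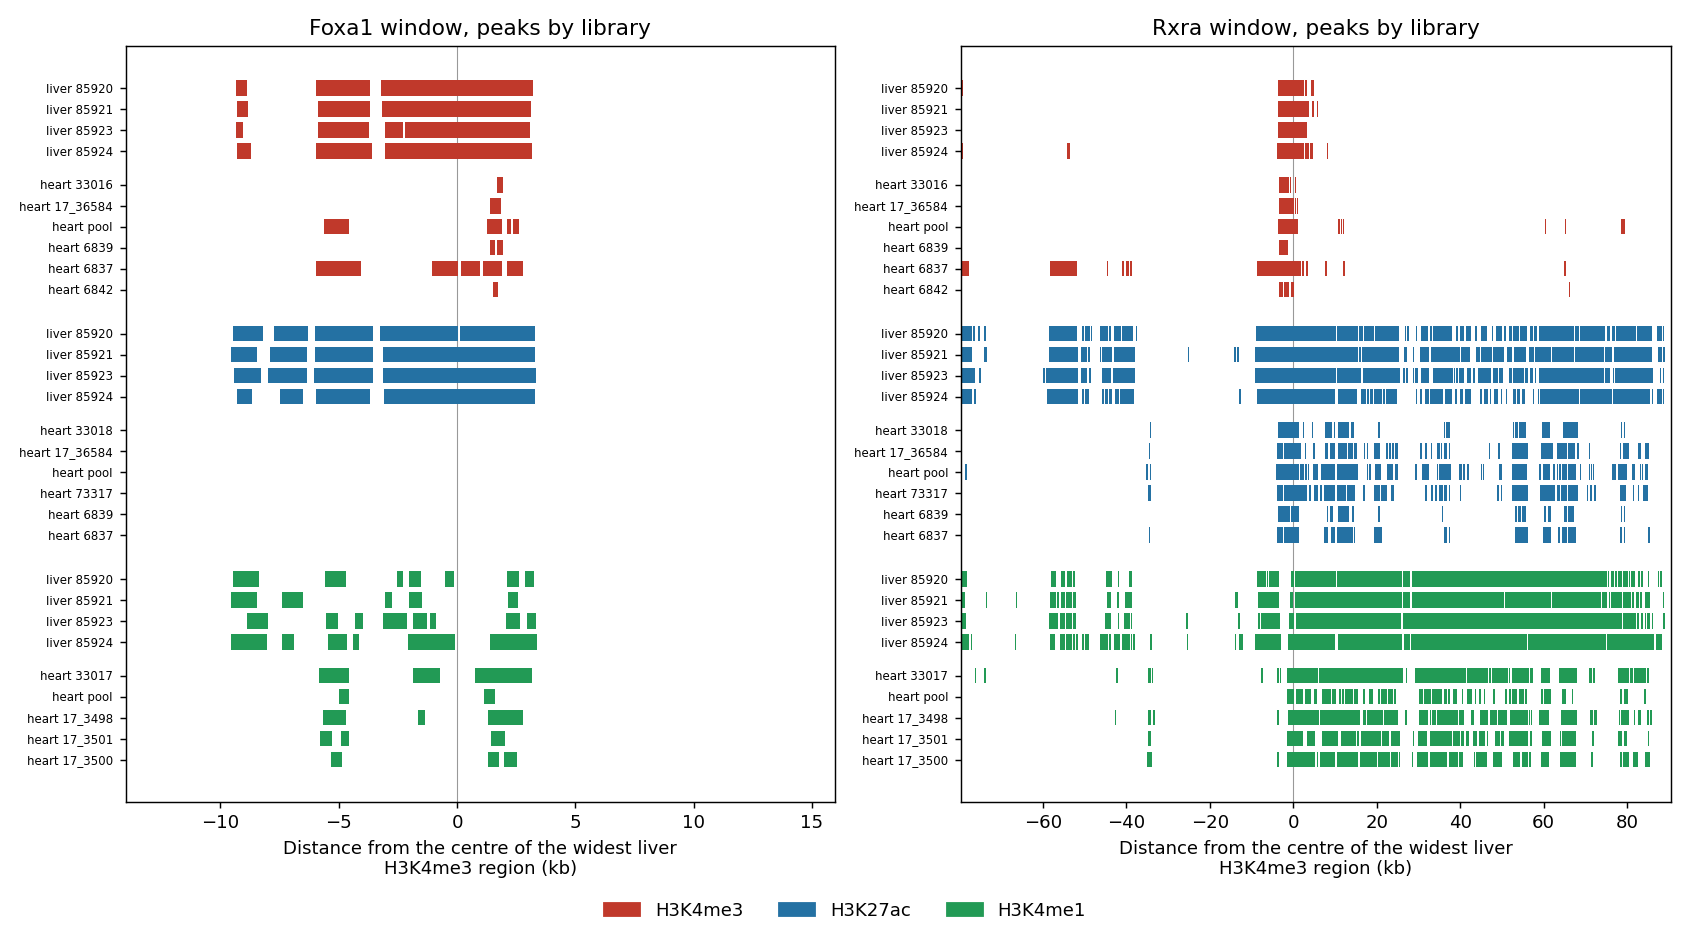
Peaks in the Foxa1 and Rxra windows, drawn as in the plot of the Hnf4a and Cebpa windows, with distance in kb from the centre of the widest liver H3K4me3 region. Heart has no H3K27ac at Foxa1 but short H3K4me3 and H3K4me1 peaks, and at Rxra the heart peaks of H3K27ac and H3K4me1 lie mainly to the right of the centre while liver also has blocks to the left.

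By the share of the window under any mark Rxra came first in both tissues, although by H3K4me3 alone it had the lowest share in liver (4.8%). Its H3K27ac coverage was 100138, 107201, 104451 and 92164 bases in livers 85920, 85921, 85923 and 85924. In heart the lowest value was 15674 bases, the median 29036 and the highest 46378. Heart was thus clearly marked, and still each liver library was above each heart library. The difference was 70543 bases between 100988 ± 6562 (SD, n = 4) and 30445 ± 12079 (SD, n = 6) (exact permutation test, adjusted p = 0.0176). Of 170 kb windows 23.3% were called higher in liver and 19.8% in heart, liver lay wholly above heart in 21.4%, and 2 of 10155 had a larger difference than Rxra.

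Some H3K27ac of the Rxra window was found in both tissues, at and after the H3K4me3 region. The H3K27ac region chr2:27690021-27695130, 12.9 kb from the centre of that region, was held by 10 of 10 libraries. The block chr2:27670481-27689930 around the H3K4me3 region is 19450 bases wide, was held by 4 of 4 liver and 2 of 6 heart libraries, and had median folds of 65.7 in liver lists and 19.5 in heart lists. After the region, the blocks chr2:27696103-27704999, chr2:27738155-27754730 and chr2:27756091-27765066 were held by 4 of 4 liver and 1 of 6 heart libraries each. Heart was not bare there, since each of the 6 heart libraries had a peak over part of each block. Median folds of these blocks were 7.5, 13.1 and 7.1 in heart lists and 10.0, 16.3 and 24.0 in liver lists. The region chr2:27731280-27735951 was held by 3 of 4 liver and 5 of 6 heart libraries. Before the H3K4me3 region, the block with the highest liver fold, chr2:27586824-27602765, lies mostly outside the window, with a median liver fold of 83.2 and heart peaks of at most 9.4, and in 3 of 4 livers its summit is outside. Among peaks with their summit inside the window, the top Rxra fold was 77.0, 72.1, 89.6 and 65.7 in livers 85920, 85921, 85923 and 85924, with 81, 97, 31 and 160 peaks of a higher fold in the same list. The block chr2:27620963-27628111, 55.1 kb from the centre, is 7149 bases wide with liver folds of 62.1 to 77.0 and no heart peak. The reverse was seen at chr2:27645081-27645571, a small H3K27ac region held by 4 of 6 heart and 0 of 4 liver libraries (Fisher's exact p = 0.0762), and at the H3K4me1 region over it, chr2:27644783-27645678, held by 4 of 5 heart and 0 of 4 liver libraries (Fisher's exact p = 0.0476, adjusted p = 0.18). Both are named after their values were seen.

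H3K4me3 at Rxra formed 1 broad domain in liver, chr2:27675892-27683362, of 7471 bases, with a fold of 124.2 to 192.9 in liver lists. Other H3K4me3 peaks also lay in the window, which had 1 to 6 peaks in liver lists and 2 to 14 in heart lists. Each of the 6 heart libraries had a peak over this domain, and 2 of the 5 other than animal 6837 held it. The widest H3K4me3 peak of the window, which lay on this domain in each liver, was 6303, 7471, 6935 and 6581 bases in livers 85920, 85921, 85923 and 85924. Heart ranged from 1207 to 6278 bases with a median of 2283, the highest being animal 6837. In that library the peak with the highest fold, which lies on the domain, was 4262 bases, so its widest peak is another peak of the window. The means were 6822 ± 504 bases (SD, n = 4) and 2835 ± 1907 (SD, n = 6), or 2147 ± 996 (SD, n = 5) in heart without animal 6837. At most 38 peaks of any liver list were wider. The heart peaks were shorter but not low in their own lists, with top folds of 49.1 to 138.8.

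H3K4me3 coverage of the Rxra window was 7637, 8222, 6935 and 9715 bases in livers 85920, 85921, 85923 and 85924. In heart it ranged from 2132 to 23296 bases with a median of 3673. The highest value, 23296, was that of animal 6837, and the difference with it was 1004 bases (exact permutation p = 0.919, adjusted p = 1). Without it the tissues did not overlap and the difference was 4239 bases (exact permutation p = 0.0159, adjusted p = 0.14). Liver lay wholly above heart in 1.10% of windows of this length with the library and in 6.00% without it. A larger difference than at Rxra was found in 781 of 12204 windows with it and in 216 of 12090 without it.

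Rxra held the widest H3K4me1 peak of each liver list. The peak was 24225, 25722, 25107 and 23246 bases wide in livers 85920, 85921, 85923 and 85924, with no wider H3K4me1 peak anywhere in those lists. In heart the widest Rxra peak was 12384 bases in animal 33017, 2461 in the pool, 9396 in 17_3498, 5234 in 17_3501 and 6696 in 17_3500, with 6 to 102 wider peaks in the same list. Coverage by H3K4me1 was 93640, 98430, 100230 and 110538 bases in the 4 livers. It was 72709 bases in heart animal 33017, 37081 in the pool, 60404 in 17_3498, 52398 in 17_3501 and 55599 in 17_3500. The tissues did not overlap and differed by 45071 bases, which did not pass the adjusted test (exact permutation p = 0.00794, adjusted p = 0.0829), and 12.9% of windows of this length separated in that direction.

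The scale mattered for H3K4me1 at Rxra because of the pool, whose list is the shortest of the mark. Per gigabase of genome under peaks, the pool had 3995509 bases in the Rxra window. Livers had 1370417 to 1541403, and the other heart libraries 662828 to 1059910. On that scale the difference between means was -65796 with the pool and 556306 without it, the latter an alternative chosen after seeing the data. Of 23 H3K4me1 regions at Rxra, 8 were held by every liver and no heart library, against 8.26% of regions over the genome. The widest were chr2:27671046-27676386 with 5341 bases, chr2:27705852-27707676 with 1825 and chr2:27621257-27622905 with 1649. Heart peaks lay over part of chr2:27671046-27676386 in 3 heart libraries, with folds of at most 8.2. They lay over part of chr2:27705852-27707676 in 2 heart libraries, with folds of at most 12.2. The long regions at and after the H3K4me3 domain were shared, chr2:27678151-27705793 by 4 liver and 5 heart libraries and chr2:27707881-27763610 by 4 and 4.

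**Figure D4:**
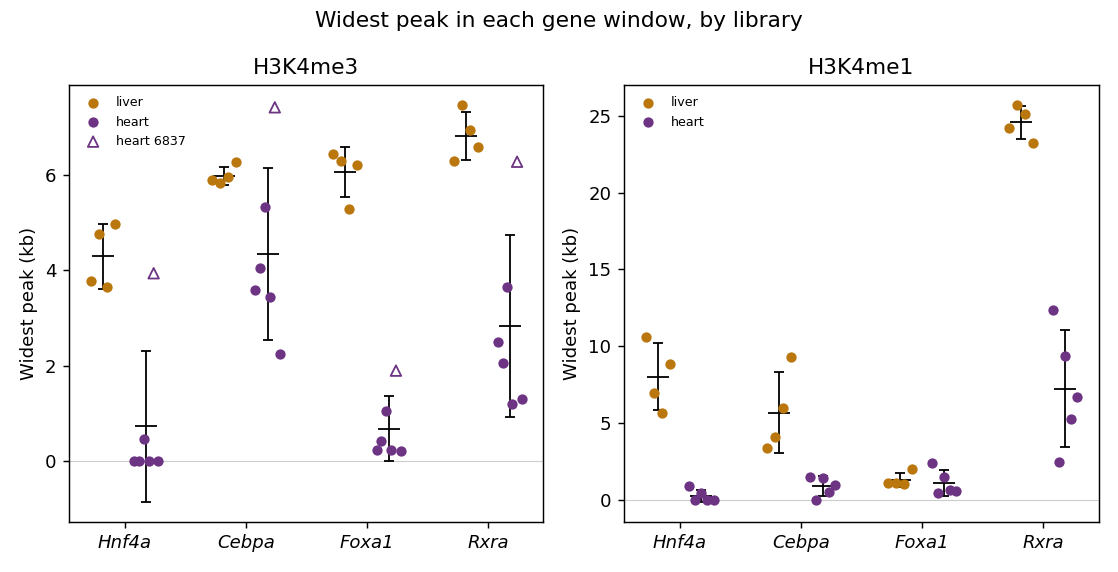
Width in kb of the widest merged peak in each window, for H3K4me3 and H3K4me1, with 1 point per library, lines at the means and bars of the SD; the open triangle is the heart H3K4me3 library of animal 6837. The Rxra H3K4me1 points of liver lie at 23246 to 25722 bases, above those of the other genes. For H3K4me3, 5 of the 6 heart points at Cebpa lie below the liver points, and at Hnf4a 4 heart points lie at 0 while the open triangle, at 3942 bases, lies within the liver range.

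Region by region, H3K27ac gave 27 calls in the 4 windows, each held by every liver library and by no heart library (Fisher's exact test, adjusted p = 0.0274 for each), and no call in the other direction. Holding a region means covering a share of at least 0.5 of it, and 10 of the 27 had a shorter heart peak over them in some heart library, 3 at Hnf4a, 3 at Cebpa and 4 at Rxra. The calls were 7 of 17 regions at Hnf4a, 4 of 13 at Cebpa, 4 of 4 at Foxa1 and 12 of 38 at Rxra. Over the genome 13.5% of 100670 H3K27ac regions were called higher in liver and 3.86% higher in heart. Leaving out any of the 4 liver libraries left 0 calls, with 3 against 6 libraries and a smallest p of 0.0119. Of the 72 H3K27ac regions, 45 had an unadjusted p under 0.05 in favour of liver and 0 in favour of heart, against 21.7% and 8.65% over the genome.

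For H3K4me1, 33 of 75 regions in the windows were held by every liver and no heart library, against 8.26% of such regions over the genome. Some of the 33 had a heart peak over a smaller part of them. No H3K4me1 region passed the adjusted Fisher's exact test, here or elsewhere (0%), while 42 had an unadjusted p under 0.05 in favour of liver and 1 in favour of heart, against 21.8% and 4.70% over the genome. For H3K4me3 the count was 2 of 16 regions, against 1.66% over the genome, and without animal 6837 it was 6 of 14 (3 at Hnf4a, 3 at Foxa1), against 6.82% over the genome. No H3K4me3 region passed the adjusted test either, and 7 of 16 had an unadjusted p under 0.05 in favour of liver and 0 in favour of heart, against 7.90% and 5.59% over the genome.

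**Figure D5:**
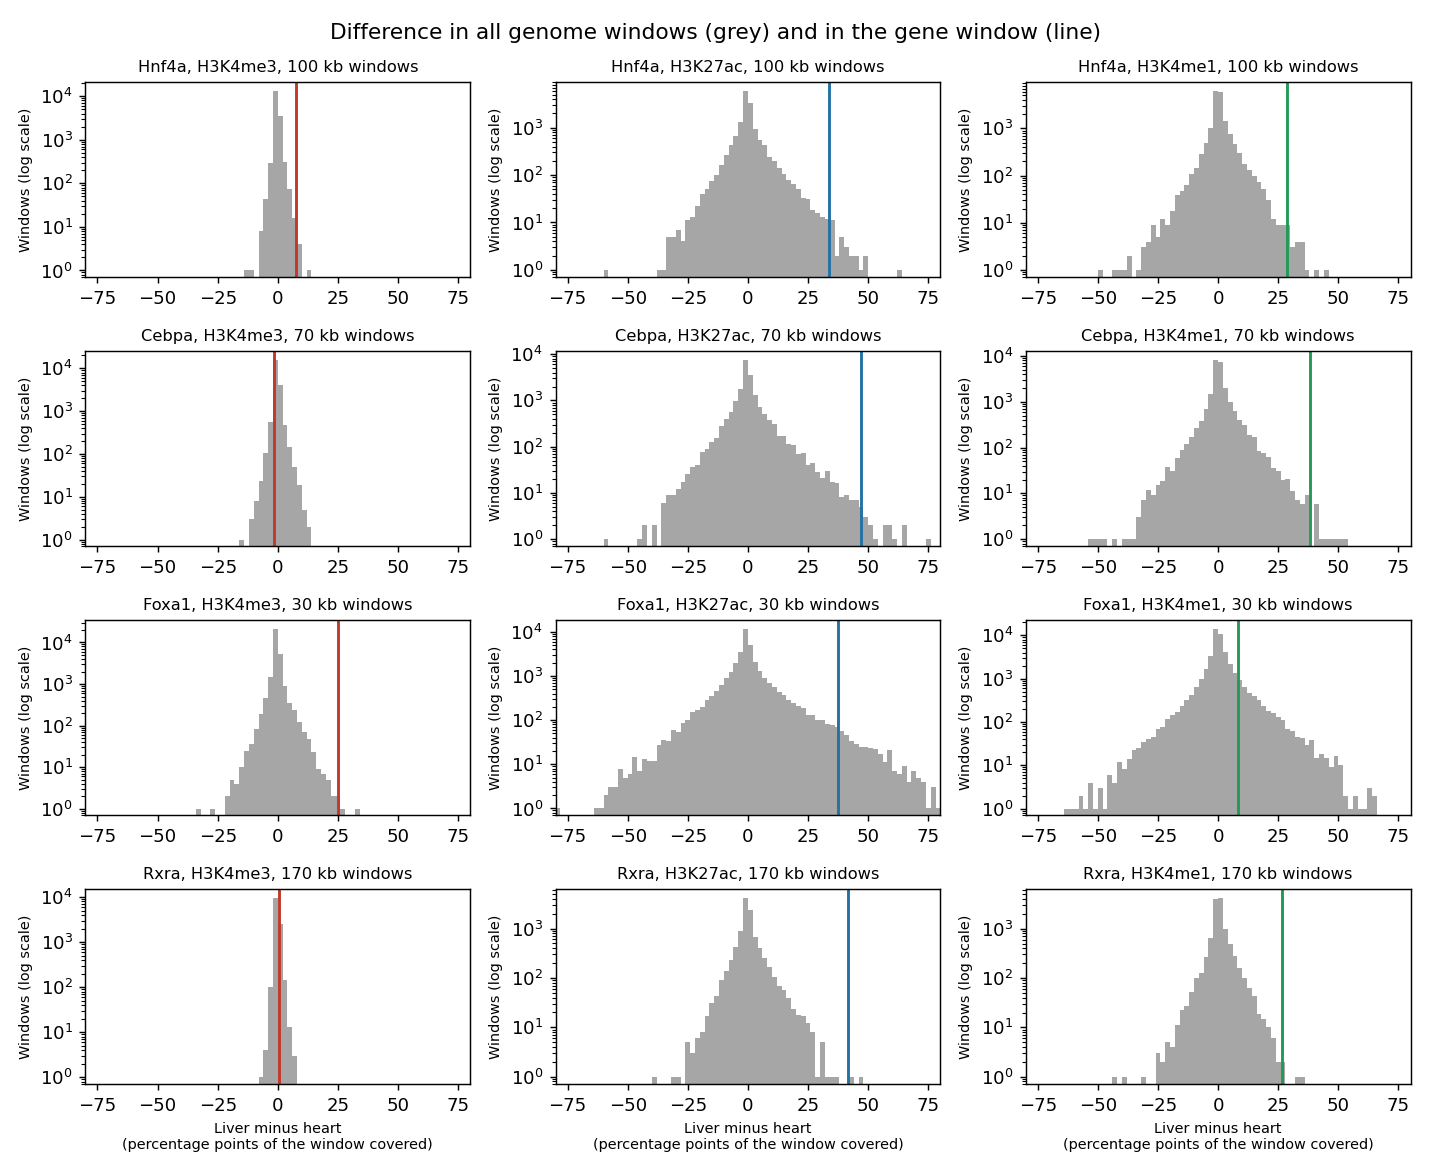
Liver minus heart difference in coverage (percentage points of the window) for all genome windows of the same length holding a peak of the mark (grey, number of windows on a log scale) and for the gene window (coloured line). The lines for H3K27ac lie at 33.8, 46.9, 37.5 and 41.5 points for Hnf4a, Cebpa, Foxa1 and Rxra, towards the right end of the grey distribution, while the line for H3K4me3 at Cebpa lies at -1.5.

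Within liver, H3K4me3 was nested in H3K27ac. Of positions under H3K4me3 in at least 2 livers, 99.0% to 100% were also under H3K27ac in the 4 windows, and 36.2% to 69.7% under H3K4me1. In heart the share under H3K27ac was 100% at Hnf4a and Rxra, 77.6% at Cebpa and 0% at Foxa1. Without animal 6837 it was 95.5% at Cebpa, and Hnf4a had no such H3K4me3 position. A genome-wide share is not given, so the nesting is not called particular to these genes or to liver. H3K27ac reached well past H3K4me3 at Hnf4a, Cebpa and Rxra, with 27745, 30723 and 99109 bases of H3K27ac outside H3K4me3. Foxa1 had 2532 such bases, so its acetylation lay mostly on the H3K4me3 domains. Bases with H3K27ac and H3K4me1 but no H3K4me3, the combination usual for enhancers in use, numbered 20853 at Hnf4a, 23976 at Cebpa, 1303 at Foxa1 and 86548 at Rxra in liver. In heart they were 130, 239, 0 and 31931, or 465, 239, 0 and 32679 without the H3K4me3 library of animal 6837. Rxra in heart also had 32032 bases with H3K4me1 alone, against 10350 in liver. The nesting held within each animal: 97.9% to 100% of a liver's H3K4me3 in a window lay under the H3K27ac of the same liver.

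The heart library of animal 6837 could be set beside the H3K27ac library of the same heart. At Hnf4a and Foxa1 its 12364 and 5253 bases of H3K4me3 met no H3K27ac peak of that heart. At Cebpa 9.7% and at Rxra 25.8% of its H3K4me3 bases lay under that heart's H3K27ac. Liver H3K27ac of at least 2 libraries covered 100% of its H3K4me3 bases at Hnf4a, 98.8% at Cebpa, 100% at Foxa1 and 100% at Rxra. Liver H3K4me3 covered 72.0%, 26.9%, 99.8% and 30.5%, so at Cebpa and Rxra most of its H3K4me3 lay on sequence that was acetylated in liver without being trimethylated there. In the remaining 5 heart libraries H3K4me3 lay 100% under liver H3K4me3 at Cebpa and Foxa1. At Rxra this share was 70.3% in the pool, 93.3% in animal 6842 and 100% in the others, and at Hnf4a it was 43.9% in the pool, the only one of the 5 with a peak there. Lying under liver H3K27ac was not particular to animal 6837. In these 5 libraries the share of H3K4me3 under liver H3K27ac was 98.3% to 99.7% at Cebpa, 100% at Foxa1 and 97.4% to 100% at Rxra. At Hnf4a it was 100% in the pool.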

How the data were processed

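Each library is a list of peaks on GRCm38, the build given in the file names, called with MACS2 per the submitters' processing notes. The file name also gives the control library. Aligner, caller settings and tool versions were not given in the sources used here. Per peak, the authors deposited a fold (ratio) over background and a −log10 q-value from the caller. From these lists, peaks on the 21 main chromosomes were merged within a library, clipped to the windows and counted in bases. A region is at least 200 bases under peaks of at least 2 libraries of a mark. A library holds a region when it covers a share of at least 0.5 of it, and Fisher's exact tests were adjusted over all regions of the mark. A region's fold is the highest of the peaks over it. Calculations used SciPy 1.17.1, pandas 2.3.3 and NumPy 2.4.6 under Python 3.11.15, Matplotlib 3.10.9 drew the plots, and the tests were checked on simulated data.

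The members, windows and lists were chosen with earlier results of these data known. Regions named are the widest H3K4me3 region, the 3 H3K27ac regions with the highest median liver fold, and up to 3 regions per mark found in every library of a tissue and none of the other, with exceptions said in place. A list of further liver factors was not analysed here, and exons, introns and sequences were not used here. Samples are labelled as separate animals. The tissue check used Alb, Myh6 and Myh7. Alternatives were a stricter q, equal numbers of peaks, scaling by bases covered, whole peaks, a shifted tiling, other region rules, and leaving out libraries.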

Additional observations from a re-analysis of the deposited data

Results flagged for a closer look

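Of 23 groups of libraries in which a single library could be tested for lying far from the rest, 6 had such a library, and chance gives about 1 in 20. The heart H3K4me3 library of animal 6837 did so at Hnf4a with 12364 bases (the others 0 to 917), at Cebpa with 30071 (the others 3439 to 5325) and at Rxra with 23296 (the others 2132 to 6882). The liver H3K4me1 library of animal 85924 did so at Hnf4a with 38037 bases (the others 25755 to 27207) and at Cebpa with 36161 (the others 25992 to 26352), and its list is the longest of the liver H3K4me1 lists with 113889 peaks. The liver H3K27ac library of the same animal was low at Foxa1 with 10275 bases (the others 11548 to 11652).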

How the results depend on the processing

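The H3K27ac differences kept their direction and passed the adjusted test in 60 of 60 window comparisons under the alternatives. Scaled per gigabase under peaks, Cebpa H3K4me3 turned to 14778 and Rxra H3K4me1 to -65796 (556306 without the heart pool), while Hnf4a and Cebpa H3K4me1 passed with 408860 and 384172 (exact permutation test, adjusted p = 0.0436 and 0.0463). Without the pool these became 407153 and 377935 and did not pass (exact permutation test, adjusted p = 0.0796 and 0.0832). With equal numbers of peaks Foxa1 H3K4me1 turned to -689 (exact permutation test, adjusted p = 0.87). Cebpa H3K4me3 ranged from -2050 to 3277 bases with single libraries left out, the latter without heart 6837, and Rxra H3K4me3 from 6.2 to 4239. The H3K27ac region calls ranged from 0 to 32 in this way and from 23 to 31 under the other region rules. With H3K4me1 hearts of the do library series alone, the series of all liver libraries, the differences were 28496, 26187, 1912 and 45814 bases for Hnf4a, Cebpa, Foxa1 and Rxra, and 4 against 2 libraries cannot go below an exact p of 0.0667. Beyond these, 58 H3K4me3 and 60 H3K4me1 comparisons (leaving out heart 33017, whose list carries an unexplained tag, counted once) kept direction and side of the threshold, the test not being passed in any of them. No paired analysis was possible because liver and heart came from different animals and replicate numbers name libraries in order of listing. Depth is unknown, so an absent peak shows that none was called, not that the mark was absent.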
